A study of Mus musculus with 21 samples.

Results

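The genome-wide difference in H3K4me1 between naive mouse embryonic stem cells that lack both MLL3 and MLL4 (double knockout, DKO) and naive cells that lack MLL3 and still carry a floxed, unrecombined MLL4 allele (floxed cells) is described here. It was taken as the naive DKO level minus the naive floxed level in each region of the deposited table, both as deposited and after subtraction of the median over all regions. Both columns hold a level in 186824 of the table's 186826 regions, and they rest on 4 of the series' 21 libraries. Both groups lack MLL3, so this comparison differs in MLL4. Wild-type cells and cells with inactivating mutations in the catalytic domains of both enzymes (dCD) were measured in the same table, in the naive state and in the formative state that follows withdrawal of the naive medium for 63 h. The labels name the R1 line for the wild-type and dCD cells and name no parental line for the floxed and DKO cells. Nothing in the labels says how many clones each genotype stands for.

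MLL3 (Kmt2c) and MLL4 (Kmt2d) are large histone methyltransferases that place a single methyl group on lysine 4 of histone H3, mostly at enhancers. They act in complexes that share WDR5, RBBP5 and ASH2L with the SET1 and MLL1/2 enzymes, and they also contain the H3K27 demethylase UTX (Kdm6a). H3K4me1 is broad at active and poised enhancers and flanks promoters, whose centres carry H3K4me3 placed largely by the SET1 and MLL1/2 enzymes, several of which are recruited to unmethylated CpG-rich DNA. Naive embryonic stem cells correspond to the preimplantation epiblast, and formative cells to the epiblast shortly after implantation.

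H3K4me1 was profiled by CUT&RUN, in which an antibody bound to chromatin directs a nuclease to cut out the DNA around it. The table holds 1 level per region for each genotype and state, each pooled over 2 libraries, so there is no spread between replicates and no test. Regions are called below by size alone, at 2-fold on the deposited log2 scale, and a call says nothing of whether another pair of libraries would repeat it. Normalized reads per region were computed back from the levels, which are log2 values that include the region's width. Their median was 39.3 in wild-type, 37.1 in floxed, 31.6 in DKO and 31.5 in dCD naive cells, and their sums over regions were 12503317, 12548456, 10457656 and 10507859. Whether the yeast spike-in DNA entered this scaling is not given in the sources used here, so a general drop in the mark and a difference in scaling cannot be told apart. The sample labels and the protocol text give different catalogue numbers for the H3K4me1 antibody, and the one in the protocol text is sold against H3K27ac. Which was used cannot be told here, so the mark is named as the labels give it.

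The lowest and highest regions differed in their DNA. To show this, the central 300 bases of 4 regions are printed from the GRCm38 reference, plus strand, 5′ to 3′, with every CG dinucleotide in capitals. The first 2 were among the lowest intronic and intergenic regions in DKO cells, the last 2 among the highest. None of the 4 stretches overlaps an annotated exon.
Lrrtm4 intron, chr6:80589868-80590167: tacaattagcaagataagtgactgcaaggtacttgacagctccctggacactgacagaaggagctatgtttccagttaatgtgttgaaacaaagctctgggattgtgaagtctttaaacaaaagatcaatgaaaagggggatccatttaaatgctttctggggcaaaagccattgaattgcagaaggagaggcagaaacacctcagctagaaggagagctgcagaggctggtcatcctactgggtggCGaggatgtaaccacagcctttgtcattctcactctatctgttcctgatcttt
intergenic, nearest gene Snord14d, chr10:46814615-46814914: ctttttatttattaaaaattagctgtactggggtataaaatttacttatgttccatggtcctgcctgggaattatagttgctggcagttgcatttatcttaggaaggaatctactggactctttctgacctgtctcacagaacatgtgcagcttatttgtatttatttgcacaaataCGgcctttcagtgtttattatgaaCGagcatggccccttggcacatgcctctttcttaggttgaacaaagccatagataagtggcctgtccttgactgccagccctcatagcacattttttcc
Ulk4 intron, nearest start site Mir7090, chr9:121041602-121041901: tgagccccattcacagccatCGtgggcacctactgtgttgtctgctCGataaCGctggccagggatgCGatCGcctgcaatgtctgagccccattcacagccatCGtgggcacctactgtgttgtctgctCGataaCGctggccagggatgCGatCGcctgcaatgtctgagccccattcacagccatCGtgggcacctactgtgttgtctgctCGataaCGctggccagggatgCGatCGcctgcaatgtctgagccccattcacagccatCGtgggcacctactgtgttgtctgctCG
intergenic, nearest gene Adamts20, chr15:94465193-94465492: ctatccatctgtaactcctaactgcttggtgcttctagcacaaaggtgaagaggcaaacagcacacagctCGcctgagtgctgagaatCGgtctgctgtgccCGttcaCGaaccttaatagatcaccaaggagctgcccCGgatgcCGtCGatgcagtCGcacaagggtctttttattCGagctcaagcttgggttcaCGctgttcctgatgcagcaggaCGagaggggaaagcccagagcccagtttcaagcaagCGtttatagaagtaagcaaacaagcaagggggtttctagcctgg
The Lrrtm4 and Snord14d stretches held 1 and 2 CG dinucleotides, against 17 and 12 in the Ulk4 and Adamts20 stretches. The Ulk4 stretch is a unit of 84 bases repeated in tandem, so its count takes the same CG dinucleotides more than once, and its reads cannot be placed on one unit. The Lrrtm4 region had 41.4 normalized reads in wild-type, 65.2 in floxed, 3.57 in DKO and 12.9 in dCD naive cells, a DKO minus floxed difference of -3.77 (log2). The Ulk4 region had 54.3, 9.26, 136 and 83.3 in the same order, a difference of 3.71. The floxed column was thus the highest of the 4 at the first region and the lowest of the 4 at the second. At the region nearest Snord14d the reads were 78.4, 95.8, 9.71 and 20.2, and at that nearest Adamts20 they were 25.4, 14, 81.5 and 40.9.

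The lowest regions of Klf2, a pluripotency locus, and of Jarid2, a Polycomb locus, held motifs of naive transcription factors. Both regions were picked as examples after their matches were seen. The next pair shows a match outside repeat-masked bases and a match inside them, a difference that mattered for the motif shares given further on. They are the central 300 bases of the lowest regions within 50 kb of Klf2, with GGGTGTGG (a KLF motif) in capitals, and of Jarid2, with TCAAGGTCA (the motif of ESRRB and NR5A2) in capitals. Both motifs lie on the minus strand and so read as CCACACCC and TGACCTTGA.
Klf2, chr8:72290771-72291070: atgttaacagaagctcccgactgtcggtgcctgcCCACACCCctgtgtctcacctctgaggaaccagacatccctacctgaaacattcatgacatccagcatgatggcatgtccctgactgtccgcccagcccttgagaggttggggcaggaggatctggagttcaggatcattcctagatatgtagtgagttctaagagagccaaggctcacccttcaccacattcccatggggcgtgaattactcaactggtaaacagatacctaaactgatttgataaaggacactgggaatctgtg
Jarid2, chr13:44688101-44688400: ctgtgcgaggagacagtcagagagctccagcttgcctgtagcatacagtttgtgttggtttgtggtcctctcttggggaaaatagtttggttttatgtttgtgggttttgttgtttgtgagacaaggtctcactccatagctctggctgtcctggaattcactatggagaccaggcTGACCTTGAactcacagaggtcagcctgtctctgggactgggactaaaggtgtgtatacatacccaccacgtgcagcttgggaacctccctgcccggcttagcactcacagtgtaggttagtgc
The Jarid2 match lies in repeat-masked bases of the reference and the Klf2 match does not. The Klf2 region had 64.3 reads in wild-type, 45.6 in floxed, 12.5 in DKO and 32.9 in dCD naive cells, and the Jarid2 region 59.6, 71.7, 19 and 28.2. In both, DKO and dCD cells were lower than wild-type and floxed cells. Klf2 lies on chromosome 8, where the wild-type column is the highest, as described below for whole chromosomes.

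Across all regions, the H3K4me1 level was lower in DKO than in floxed cells more often than it was higher. The median difference was -0.18 (log2), with quartiles of -0.73 and 0.32 and an SD over regions of 0.78, and 59.3% of regions lay below 0. As deposited, 29722 regions, or 15.9%, were at least 2-fold lower in DKO cells and 8143, or 4.36%, at least 2-fold higher. After centring on the median these numbers were 20975 (11.2%) and 13810 (7.39%), so the excess of lower regions narrowed but remained. The plot of reads in the 2 columns shows the regions spread on both sides of the line of equality.

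**Figure D1:**
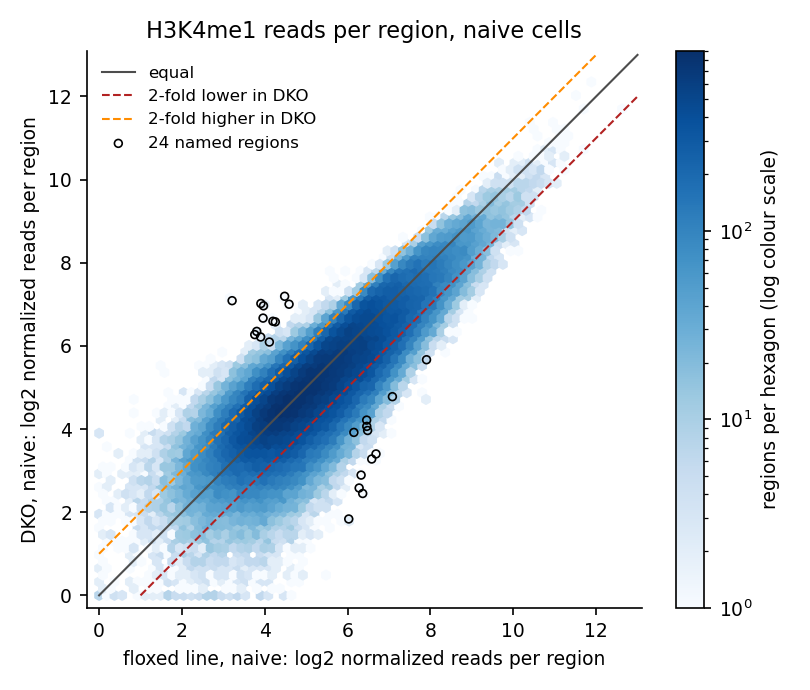
Normalized reads per region in naive floxed cells (x axis, log2) and naive DKO cells (y axis, log2), 1 pooled column each, coloured by the number of regions; solid line, equality, and dashed lines, 2-fold. More of the 186824 regions lie below the lower dashed line (15.9%) than above the upper one (4.36%); reads under 1 are drawn at 1, and 9 regions beyond the axes are not drawn.

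Beside wild-type cells the 2 kinds of called region looked unlike each other. The wild-type column does not enter the difference, but the floxed and DKO columns do, so the following are descriptions. Regions called lower had medians of 44.5 reads in wild-type, 51.1 in floxed, 18.3 in DKO and 21.4 in dCD cells, so DKO and dCD cells both lay below wild-type and floxed cells. Of them, 99.4% were below wild type in DKO cells, against 66% of all regions, and 68.7% (20419 regions) were at least 2-fold below it, against 16.2% of all. Regions called higher had medians of 21.6, 11.8, 30.0 and 24.8 reads in the same order. In 92.3% of these the floxed column was below wild type, against 52.6% of all regions, and in 86.0% (7001 regions) the DKO column was above it, against 34.0% of all. DKO cells were at least 2-fold above wild type in 18.6% (1512 regions), against 2.54% of all. Both columns thus lay away from wild type in these regions, by a median of -0.77 (floxed) and 0.54 (DKO).

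CpG density ordered the regions. In the decile of regions with the fewest CG dinucleotides (under 0.528 per 100 bases) the median difference was -0.85, and 43.8% were at least 2-fold lower. It climbed in every step to 0.40 in the decile with the most (2.18 per 100 bases or more), where 0.535% were at least 2-fold lower and 7.85% at least 2-fold higher. Median reads went from 22.5 in floxed to 12.1 in DKO cells in the first decile, and from 49.5 to 65.4 in the last. Among regions with at least 32 reads in wild-type cells the gradient ran from -1.19 to 0.38, so it was not limited to weak regions. In regions more than 5 kb from a start site it ran from -0.89 to 0.33, and within 1 kb of a start site from -0.66 to 0.49. The dCD minus wild-type difference, from other libraries, ran from -0.68 to 0.41 over the same deciles, and the formative DKO minus floxed difference from -0.99 to 0.56. Along the same order the median GC content of regions went from 41.8% to 51.2% and the median repeat-masked share from 25.6% to 14.1%, and their part in the gradient was not tested.

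**Figure D2:**
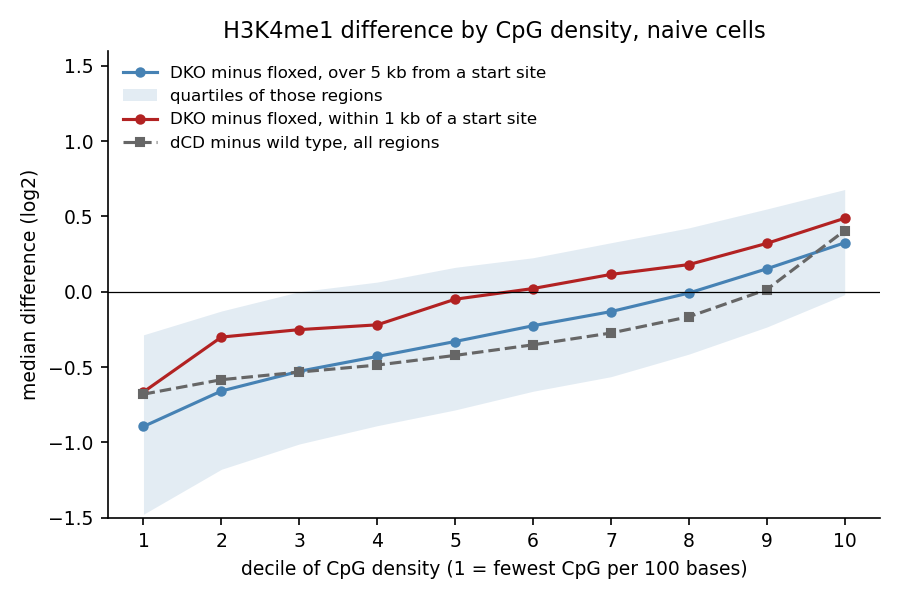
Median H3K4me1 difference (log2) in deciles of regions ordered by CpG density, naive cells. DKO minus floxed is drawn for regions over 5 kb from a start site (with quartiles) and within 1 kb of one. The dCD minus wild-type line covers all regions. From the CpG-poorest to the CpG-richest decile the 3 lines climb from -0.89 to 0.33, from -0.66 to 0.49 and from -0.68 to 0.41.

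Promoters and distal regions lay on opposite sides of 0. The 10671 regions within 1 kb of a start site had a median difference of 0.38, with 60.6 reads in floxed and 75.9 in DKO cells, and 2.85% of them were at least 2-fold lower. From 1 to 5 kb the median was 0.08, from 5 to 20 kb -0.25, and beyond 100 kb -0.33, where 24.6% were at least 2-fold lower. By annotation, 5' UTR regions stood at 0.42, promoter regions at 0.35, exonic regions at 0.14, intronic regions at -0.20 and intergenic regions at -0.25. Once each region was centred on its CpG decile, the promoter median was 0.11 and that beyond 100 kb -0.027, so much of the contrast went with CpG density. Within genes the pattern was the same. Of 8448 genes with both a promoter region and distal regions, the promoter lay above the distal mean in 6786 (80.3%), and in 4192 (49.6%) the promoter was above 0 while the distal mean was below it. After CpG centring the promoter lay above in 55.8%.

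Strong regions were lower on average than weak ones. Regions with over 256 wild-type reads had a median difference of -0.47, and those with under 16 wild-type reads 0.08. By width, regions over 10 kb stood at -0.41 and those of at most 1 kb at -0.08. The quintile of regions with the most repeat-masked sequence stood at -0.47, and that with the least at 0.11. Repeat content and CpG density overlap, and after CpG centring the most masked quintile stood at -0.13.

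Regions that wild-type cells lose on leaving the naive state were the lowest of the transition classes. These were the 19643 regions that the authors' deposited table gives as lower in formative than naive wild-type cells at an FDR under 0.05. Their median difference in naive cells was -0.62, with 71.2 reads in floxed and 45.2 in DKO cells, and 29.4% were at least 2-fold lower. Centred on the CpG decile it was -0.37. The 18339 regions that wild-type cells gain had a median of -0.10 in naive cells, on the opposite side of 0 after CpG centring (0.25). The formative comparison showed the reverse order, at 0.25 for the lost and -1.08 for the gained regions. Thus DKO cells were lowest, in each state, at the regions that wild-type cells mark more in that state. Wild-type levels define these classes, and neither the floxed nor the DKO libraries were used for them.

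Libraries outside the comparison gave a related picture for the called regions. Of the 29722 lower regions, 49.4% (14681) were also at least 2-fold lower in naive dCD than wild-type cells, where 13.9% of all regions were lower and 1.55% higher. In the formative DKO minus floxed comparison 43.1% (12817) were at least 2-fold lower, against 16.7% of all regions lower and 6.47% higher. In both together it was 22.5% (6694), against 4.85% (9060) of all regions. Of the 8143 higher regions, 25.8% (2097) passed 2-fold in the same direction in formative cells, against 6.47% of all regions. In dCD cells 7.17% (584) did, against 1.55% of all. Over all 186824 regions the difference correlated with dCD minus wild type at Pearson's r = 0.627 (Spearman's rho = 0.638) and with the formative difference at r = 0.486 (rho = 0.485). Regions share libraries, width and CpG density, so these coefficients describe the table. The authors' deposited table also gives H3K27ac, a mark of active enhancers, as a log2 fold of naive DKO over wild-type cells from samples outside the series. In the authors' deposited table that H3K27ac fold had a median of -0.51 in lower regions, 0.34 in higher regions and 0.04 in all, and over regions its r with the H3K4me1 difference was 0.161.

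Several motifs of pluripotency factors, though not all searched, were more frequent in the lower regions than in regions within 0.5 of no difference. The search covered the central 300 bases of each region on both strands, and the motifs can overlap one another. TTGTNATGC, the core of the composite SOX and octamer element bound by SOX2 and OCT4, was present in 1.80% of lower regions, 0.779% of regions near 0 and 0.996% of all. TCAAGGTCA was present in 1.70%, 0.885% and 1.03%, and ATGCAAAT, the octamer, in 3.07%, 1.97% and 2.18%. GGGTGTGG was present in 4.22%, 3.24% and 3.36%. More than 5 kb from start sites, regions with TCAAGGTCA had a median difference of -0.57 and those without it -0.27. Centred on CpG deciles these were -0.29 and -0.03, and in dCD minus wild type the deposited medians were -0.65 and -0.37. For TTGTNATGC the medians were -0.56 with and -0.27 without, and -0.21 and -0.03 after centring. The motifs that hold CG were less frequent in lower regions. CGCGCG was in 0.148% of lower regions and 1.33% of regions near 0, CACGTG, an E-box, in 3.15% and 4.70%, and GGGCGTGG, a second KLF motif, in 1.19% and 1.54%. CACCTG, an E-box without CG, was also less frequent, at 21.7% and 23.4%. Distal medians of the CG motifs did not all follow these shares. For GGGCGTGG they were -0.30 with and -0.27 without it, and -0.15 and -0.03 after CpG centring. For CGCGCG they were 0.20 and -0.28, and -0.10 and -0.03 after centring. For CACGTG they were -0.14 and -0.28, and -0.03 and -0.04 after centring. AGATAAG, the GATA motif, was in 4.18% and 3.85%, and TGACTCA, the AP-1 motif, in 5.86% and 5.49%, with distal medians close to those of regions without them. TTCCNNGAA, the STAT motif, was in 5.11% and 4.74%, with distal medians of -0.276 with it and -0.271 without it. For TCAAGGTCA and TTGTNATGC, more of the excess lay in matches inside repeats than outside them. Of the regions with TCAAGGTCA, 47.2% had it only in repeat-masked bases. Matches outside repeats were present in 0.720% of lower regions and 0.499% of regions near 0, and matches only inside them in 0.979% and 0.386%. For TTGTNATGC the shares were 1.05% and 0.655% outside repeats, and 0.757% and 0.125% only inside them. The 427 distal regions with TTGTNATGC only inside repeats had a median difference of -0.998 (-0.44 after CpG centring), and the 1201 with it outside repeats -0.43 (-0.11). For GGGTGTGG outside repeats the shares were close, at 2.41% and 2.31%. For ATGCAAAT they were 2.17% and 1.52% outside repeats, and 0.898% and 0.451% only inside them. Reads in repeats may be placed on the wrong copy, and how the mapping treated them is not given in the sources used here. A motif match is a string in the reference and not a bound site.

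At promoters, the lowest and highest regions (among those with at least 64 reads in the higher column) showed how far single sites departed. Klk1, a tissue kallikrein protease, had 160 reads in wild-type, 240 in floxed, 50.8 in DKO and 52.0 in dCD naive cells over chr7:44223328-44227989, a difference of -2.15. In formative cells its difference was 0.06. Sptlc3, a subunit of serine palmitoyltransferase, which starts sphingolipid synthesis, had 71.1 reads in floxed and 15.1 in DKO cells over chr2:139493004-139496008, a difference of -2.11. It was -2.14 in formative cells, but dCD cells had 70.8 reads and a difference of 0.26 from wild type, so at this promoter the lines without enzyme and with inactive enzyme differed in direction. Gm5 had 75.8 reads in wild-type, 24 in floxed, 128 in DKO and 127 in dCD cells over chr5:150501303-150503254, and Kcnip1, a potassium channel-interacting protein, 43.9, 17.3, 68.3 and 63.5 over chr11:33991553-33994109. At both it was the floxed column that stood apart, below the other 3.

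Exonic and intronic extremes are described by the genes that hold them. An exonic region of Uxs1, an enzyme of nucleotide sugar synthesis (chr1:43748780-43751535, nearest start site Ecrg4), had 72.2 reads in wild-type, 89.5 in floxed, 15.6 in DKO and 22.1 in dCD cells. Its difference was -2.41 in naive and 0.05 in formative cells. One in Nav1, a neuronal cytoskeleton regulator (chr1:135469561-135471499), had 88.2 reads in floxed and 16.7 in DKO cells, and one in Prkdc, the catalytic subunit of DNA-dependent protein kinase (chr16:15757991-15761216), 135 and 27.5. Among introns, a region of Dpp6, a potassium channel accessory protein (chr5:27421713-27423629), had 80.2 reads in floxed and 7.43 in DKO cells, a difference of -3.31. One of Asic2, an acid-sensing ion channel (chr11:81831723-81834558), had 103 and 10.6, a difference of -3.10. On the high side, an exonic region of Zfp629, a zinc finger gene (chr7:127610829-127614636), had 86.2 reads in wild-type, 22.3 in floxed, 146 in DKO and 101 in dCD cells, and an intronic one of Nrros (chr16:32145965-32148342) 35.8, 18.3, 96.5 and 40.4. An exonic region of Ptpn13, a tyrosine phosphatase (chr5:103540535-103542200), had 19.09 reads in floxed and 95.6 in DKO cells, and Minar1 (chr9:89600691-89602731) 14.9 and 74.3.

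One pair of high regions lies in sequence that occurs in near-identical copies on X and Y. At Erdr1 on chrY:90791820-90792589 the reads were 12.8 in wild-type, 15 in floxed, 130 in DKO and 32.5 in dCD cells. At chrX:170017142-170017832 they were 15.6, 15.7, 125 and 24.2. These reads cannot be placed on one copy, and the 2 values are best read as 1 uncertain measurement. Of the 12 highest regions, all 12 passed 2-fold in the same direction in formative cells and 1 did in dCD cells. Among all regions 6.47% were that much higher in the formative comparison and 1.55% in the dCD one. Of the 12 lowest, 7 passed 2-fold in the same direction in formative cells and 10 in dCD cells, where 16.7% and 13.9% of all regions did. CpG density was 1.14 to 4.59 per 100 bases in the highest and 0.314 to 1.96 in the lowest.

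Neighbouring regions resembled each other. Over 60707 pairs of neighbours less than 1 kb apart the differences correlated at r = 0.493, over pairs 1 to 5 kb apart at 0.343, 5 to 20 kb apart at 0.243 and more than 100 kb apart at 0.109. Centred on CpG deciles, the first and last were 0.452 and 0.122. Adjacent regions can divide a single broad domain, so these pairs are not independent. Consecutive regions at least 2-fold lower formed 19734 runs, of which 455 held 5 or more regions. Higher regions formed 7000 runs, of which 10 held 5 or more, and 74.5% of higher regions stood alone against 46.5% of lower regions. Of all regions 15.9% were called lower and 4.36% higher, so longer runs and fewer lone regions would arise for lower regions by number alone. How far the runs go beyond that was not tested.

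The longest run of lower regions held 21 regions over 608 kb of chromosome 6 (chr6:111443468-112051609), beyond the start of Grm7, a metabotropic glutamate receptor. Their reads summed to 900 in wild-type, 647 in floxed, 128 in DKO and 315 in dCD cells. The 1 Mb window that held most of it had the lowest median of 2043 windows with at least 20 regions, at -1.74 over 28 regions, of which 26 were at least 2-fold lower. Among the runs of 13 regions were those on chr10:123670299-123889797 near Tafa2, a secreted neuronal protein, with 257 reads in floxed and 49.2 in DKO cells, and on chr17:37928818-38430399 in an olfactory receptor cluster, with 815 and 206. The first differed by -0.48 in dCD minus wild type and the second by -1.15. The longest runs of higher regions were 7 regions on chr15:98288296-98457531 by Zfp641 and 6 at Dctd, which makes deoxyuridine monophosphate (chr8:48061708-48085739), where the reads summed to 182 in wild-type, 67.6 in floxed and 159 in DKO cells. Runs of 5 lay at Irx3, a homeobox gene (chr8:91683980-91701238), and Gas1, a Hedgehog co-receptor (chr13:60131442-60157470). The window with the highest median (0.69) lay at 120 Mb of chromosome 13.

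Whole chromosomes also differed. Chromosome 17 had a median difference of -0.50, chromosome 14 of -0.48 and X of -0.46, while chromosome 8 stood at 0.00 and the other autosomes between -0.22 and -0.08. On chromosome 17, 69 of 77 windows of 1 Mb were below the median of all regions, and on chromosome 14 it was 77 of 91. On these the floxed minus wild-type medians were 0.02 and -0.02, and the dCD minus wild-type medians, -0.25 and -0.29, were near the -0.29 of all regions. The formative DKO minus floxed medians were -0.36 and -0.39, against -0.13 for all regions. In the authors' deposited table, the RNA fold of naive DKO over wild type had a median of -0.26 over 516 genes on chromosome 17 and of -0.20 over 375 on chromosome 14. On chromosome 8 the floxed minus wild-type median was -0.45, the DKO minus wild-type median -0.51 and the dCD minus wild-type median -0.57, so the wild-type column was the highest there. The number of copies of each chromosome was not measured, and its part in these values was not tested. For Kat2b, Stk38, Frmpd4, Klf5, Epcam, Sox3 and Pim1 the difference is therefore also given against the median of the chromosome.

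**Figure D3:**
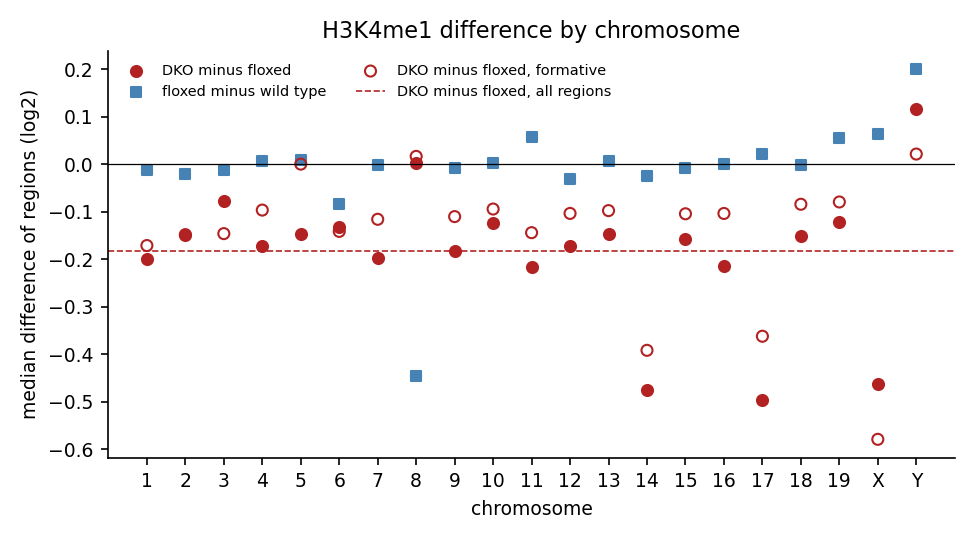
Median H3K4me1 difference (log2) of all regions on each chromosome, for naive DKO minus floxed cells beside the other comparisons named in the legend. Chromosomes 17 (-0.50), 14 (-0.48) and X (-0.46) lie below the other chromosomes in naive DKO minus floxed cells, and chromosome 8 (0.00) above the other autosomes.

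For genes, the regions within 50 kb of a start site were averaged for the nearest gene, which gave 21535 gene loci with a median difference of -0.11. At least 1.5-fold lower were 3502 (16.3%) and at least 1.5-fold higher 1632 (7.58%), or 1997 (9.27%) and 3097 (14.4%) after centring. Of the 11008 loci with at least 5 regions, 1732 were lower and 302 higher as deposited. RNA in the authors' deposited table, again DKO over wild type from other samples, had a median log2 fold of -0.33 at the 1525 lower loci with a value, 0.32 at 606 higher loci and 0.04 at all 10830. At lower loci 24.3% had an RNA fold of -1 or less in the authors' deposited table and 5.44% of 1 or more, against 11.6% and 9.56% of all. Among 123 loci with at least 5 regions and at least 2-fold lower, the share at -1 or less was 43.1%. The RNA control is wild type rather than the floxed line, so the comparisons are not the same.

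Kat2b (PCAF), a histone acetyltransferase, was 1 of the 10 lowest loci with at least 5 regions and held the most regions of them. Its 20 regions summed to 1730 reads in wild-type, 2108 in floxed, 756 in DKO and 1165 in dCD naive cells, a mean difference of -1.54, or -1.04 against the median of chromosome 17. Of the 20, 16 were at least 2-fold lower, and no region was above 0. The smallest difference was -0.30 in a CpG-rich region 2.26 kb from an annotated start (chr17:53567600-53570864), where reads were 147 in floxed and 118 in DKO cells, and the lowest was -2.71 at chr17:53558214-53560142 (54.3 and 7.65 reads). The region at another annotated start (chr17:53582231-53585354) stood at -1.32 (111 and 43.3 reads). The authors' deposited table gives the Kat2b locus an H3K27ac log2 fold of -2.27 and Kat2b an RNA log2 fold of -1.55, DKO over wild type. The dCD minus wild-type mean was -0.67 and the formative mean -0.93.

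Other loci at the low end were Frmpd4, a synaptic scaffold protein on X (-2.04, or -1.58 against X; 122 reads in floxed and 61.2 in DKO cells), Tnfrsf22, a decoy receptor for TRAIL (-1.79; 386 and 185), and Dock10, an exchange factor for small GTPases (-1.75; 475 and 177). Stk38, a kinase of the Hippo family on chromosome 17, stood at -1.54 (-1.05 against the chromosome; 767 and 297 reads), with an RNA log2 fold of -1.58 in the authors' deposited table. At all 4 the highest region was the one at or near the start. The region at the Frmpd4 start was at 0.41 and that of Tnfrsf22 at 0.01, while their lowest regions were at -3.17 and -3.01. The other 5 of the 10 lowest loci, led by 4930598F16Rik (-1.73) and Fbxw15 (-1.66), lay within the same range.

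The 10 highest loci stood between 1.03 and 1.30 and had fewer reads. A2ml1, a protease inhibitor of the alpha-2-macroglobulin family, had 168 reads in wild-type, 103 in floxed, 264 in DKO and 226 in dCD cells over 7 regions, a mean difference of 1.30. Bmp5, a BMP ligand, had 123, 132, 204 and 152 over 7 regions, a mean difference of 1.12. That mean rested partly on a region with 1.85 reads in floxed and 25.8 in DKO cells, and it was -0.032 over the regions within 10 kb. Gas1 had 162, 157, 306 and 268 over 9 regions, of which 7 were at least 2-fold higher, a mean of 1.05, while in formative cells it was -0.24. Ednra, an endothelin receptor on chromosome 8, had 262, 164, 347 and 263, a mean of 1.11 with the floxed column lowest. The authors' deposited table gives Gas1 an RNA log2 fold of -0.71, opposite in sign to its H3K4me1.

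Of the 26 genes listed for naive pluripotency, 12 had a locus mean 1.5-fold or more below floxed cells and 1 a mean above by as much, and the list median was -0.53 against -0.11 for all loci. Among all loci 16.3% were lower by as much and 7.58% higher. The list median was -0.35 centred and -0.26 centred on CpG deciles. After centring 5 of the 26 loci were lower and 1 higher, where 9.27% and 14.4% of all loci were. The same loci had medians of -0.58 in dCD minus wild type and -0.12 in formative cells. Klf5, a Krüppel-like factor that maintains the naive state, had 2528 reads in wild-type, 2695 in floxed, 1487 in DKO and 1667 in dCD cells over 16 regions, a mean difference of -0.97 (-0.50 against chromosome 14). Of the 16, 9 were at least 2-fold lower. Its broadest region, across the gene body, had 515 reads in floxed and 533 in DKO cells (0.05), and the region over its start 135 and 118 (-0.19). The region 45.0 kb downstream had 130 and 25.9 (-2.25).

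Prdm14, a repressor of FGF signalling and DNA methylation in naive cells, had 2343, 2643, 1487 and 1497 reads over 16 regions in the same order, a mean of -0.84. The region over its start had 344 reads in floxed and 417 in DKO cells (0.27), and an intronic region 10.9 kb downstream 125 and 26.5 (-2.18). In formative cells the Prdm14 mean was 0.23. Tfcp2l1, a factor downstream of LIF, had 2319, 2569, 1609 and 1616 reads over 23 regions, a mean of -0.79, with 9 regions at least 2-fold lower. Its promoter region was at 0.31 and the region 7.36 kb upstream at -1.79 (212 and 56.3 reads). At Klf5, Prdm14 and Tfcp2l1 the region over the start was near or above 0 (-0.19 at Klf5) and the lowest regions lay in the flanks. Some flanking regions were near or above 0 too, such as one 36.7 kb upstream of Prdm14 (0.37; 24.4 and 31.5 reads).

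**Figure D4:**
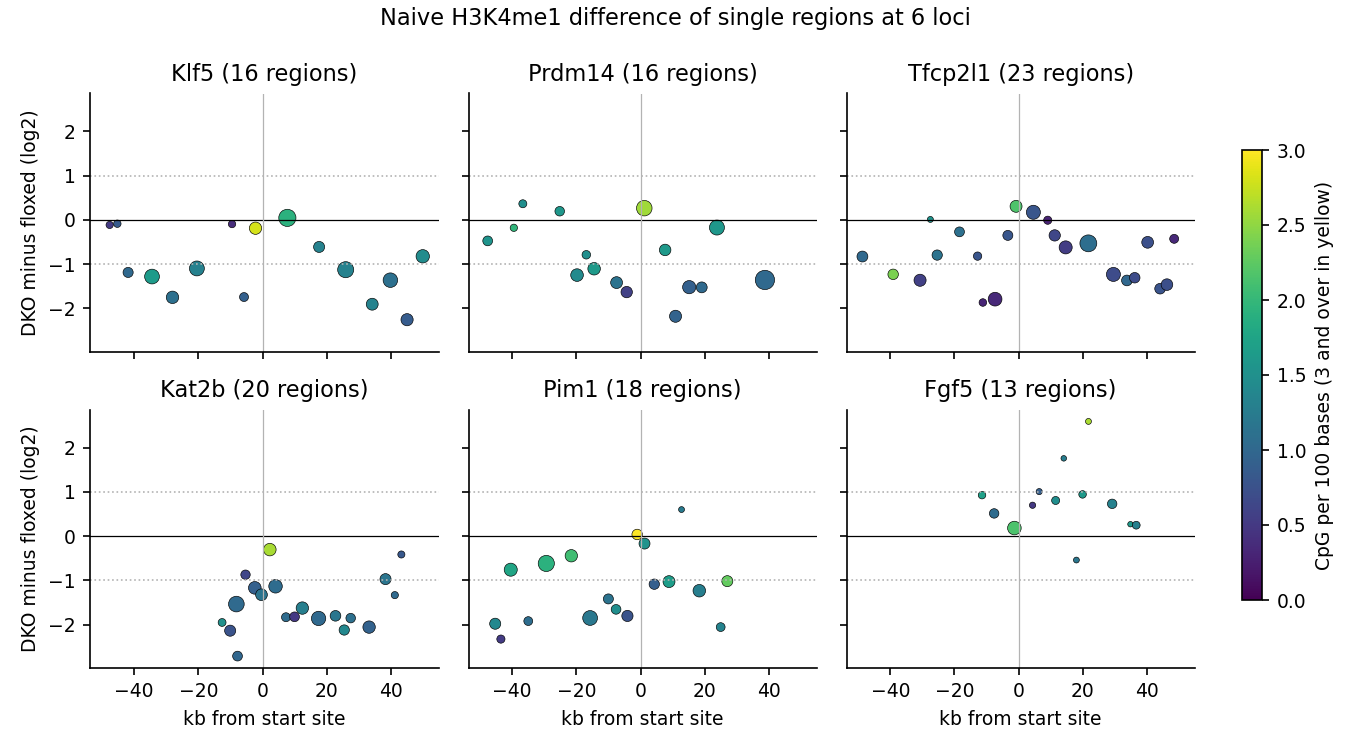
H3K4me1 difference (log2, naive DKO minus floxed) of each region within 50 kb of the start site of the genes named on the panels, against distance from the start site in kb. At Klf5, Prdm14 and Tfcp2l1 the regions over the start lie near or above 0 (-0.19, 0.27 and 0.31) and flanking regions reach -2.25, -2.18 and -1.87.

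Not every naive gene was low. Nanog stood at -0.37 (1254 reads in floxed and 1131 in DKO cells), Esrrb at -0.20 (2903 and 2181) and Klf4 at -0.04 (820 and 808), and after centring of each column Esrrb and Klf4 were on the other side of 0. At Klf4 the RNA log2 fold in the authors' deposited table was 1.85. Nr0b1, a nuclear receptor corepressor on X, was the locus counted as higher (1.19), from a single region with 24 reads in floxed and 56.2 in DKO cells. Tbx3, a T-box factor, stood at -0.62, but its summed reads were 1001 in floxed and 885 in DKO cells, and its mean over regions within 10 kb was 0.11. The mean over regions gives small and large regions equal weight, and at Tbx3 small distal regions carried it.

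Of 16 core pluripotency loci 6 were at least 1.5-fold lower and 0 higher, with a median of -0.51. Among all loci the shares were 16.3% and 7.58%. Once centred on the median of all regions, 1 of the 16 was lower, where 9.27% of all loci were. Cdh1, which encodes E-cadherin, had 2615 reads in wild-type, 2366 in floxed, 1449 in DKO and 1642 in dCD cells (mean -0.69), and the authors' deposited table gives its RNA a log2 fold of -1.01. Epcam, another epithelial adhesion molecule, stood at -0.64 (782 and 554). It lies on chromosome 17, and against that chromosome's median it was at -0.15. Sox2 stood at -0.47 (1258 and 1020).

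Of 22 formative genes 5 loci were lower and 1 higher, with a median of -0.36 in naive and -0.57 in formative cells. These counts stand beside 16.3% lower and 7.58% higher of all loci. Centred on the median of all regions, 3 of the 22 were lower and 1 higher, where 9.27% and 14.4% of all loci were. Sox3, a SOXB1 factor on X, had 69.4 reads in wild-type, 79.9 in floxed, 22.4 in DKO and 29.7 in dCD naive cells (-1.498, or -1.04 against X). Fgf5, a growth factor of the post-implantation epiblast, was the locus that was higher. It had 419, 424, 640 and 477 reads over 13 regions (0.78). Of the 13, 12 were above 0, and the highest (2.59) was a region over the annotated 3' UTR with 7.29 reads in floxed and 45.7 in DKO cells. Over the same regions the formative difference was -0.39.

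In signalling, 11 of 34 loci were lower and 0 higher, with a median of -0.43, beside 16.3% and 7.58% of all loci. Centring left 7 lower, where 9.27% of all loci were. Among ligands, Lif stood at -0.59 (2075 reads in floxed and 1392 in DKO cells) and Fgf4, the FGF that drives exit from the naive state, at -0.77 (1364 and 737). Lefty1 and Lefty2, inhibitors of NODAL, stood at -0.89 (713 and 411) and -0.79 (754 and 558). In the authors' deposited table the RNA log2 folds of Lefty1 and Lefty2 were 0.85 and 2.70, opposite in sign. The LIF receptor gene Lifr had 2552 reads in wild-type, 2366 in floxed, 1638 in DKO and 1717 in dCD cells (-0.79). Downstream, Pim1, a kinase gene induced by STAT3, had 1779, 1976, 984 and 1082 over 18 regions (-1.15, or -0.65 against chromosome 17), with 12 regions at least 2-fold lower. The Pim1 start site region, with 5.57 CG dinucleotides per 100 bases, had 71.6 reads in floxed and 73.5 in DKO cells. Socs3, the STAT3-induced inhibitor, stood at -0.68 (1875 and 1313), although none of its 8 regions reached 2-fold. Cdx1, a WNT target, stood at -1.13 from 2 regions (133 and 57.7).

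**Figure D5:**
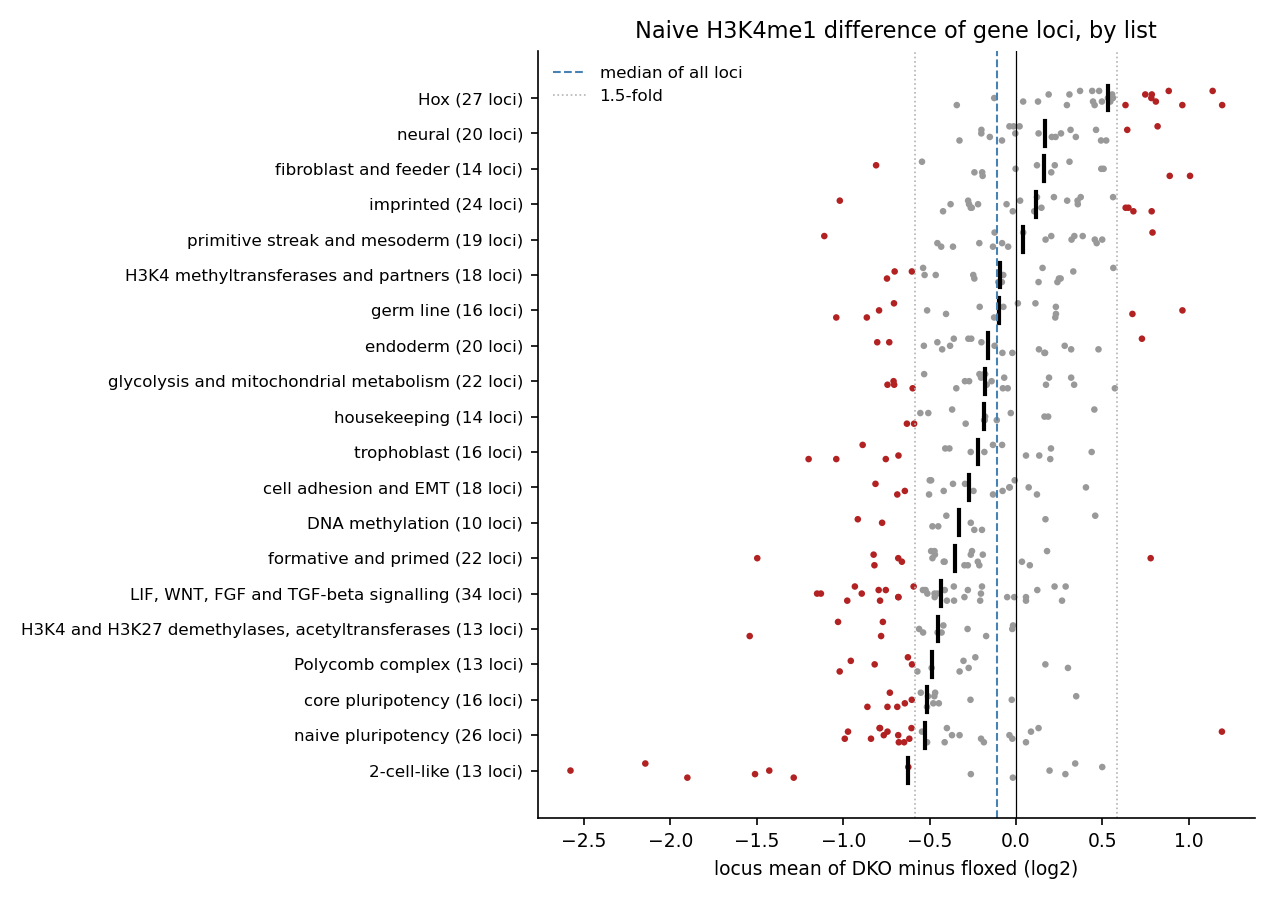
Mean H3K4me1 difference (log2, naive DKO minus floxed) of each gene locus, grouped by list, 1 point per locus with the list median marked. Naive pluripotency (-0.53), core pluripotency (-0.51) and 2-cell-like loci (-0.62) have the lowest list medians, and Hox loci (0.53) the highest.

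The genes of the enzymes themselves were less low. Of 18 loci of H3K4 methyltransferases and partners 3 were lower and 0 higher, with a median of -0.09, close to the 16.3% and -0.11 of all loci. Kmt2d, the gene deleted in DKO cells, had 610 reads in wild-type, 537 in floxed, 663 in DKO and 713 in dCD cells over 4 regions (0.33). Kmt2c, which encodes MLL3, stood at -0.53 (479 and 338). The authors' deposited table gives Kmt2d an RNA log2 fold of -0.72 and Kmt2c one of -1.15 in DKO over wild-type cells. These H3K4me1 values do not cover the deleted part alone and check no label. Cxxc1, the CpG-binding subunit of SET1 complexes, stood at -0.75, but its summed reads were 333 in floxed and 379 in DKO cells. Its gene body region was at 0.48 and a distal region with 25.2 and 3.96 reads at -2.60.

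Of 13 loci of histone demethylases and acetyltransferases and their partners 4 were lower and 0 higher, with a median of -0.45. Among all loci 16.3% were lower and 7.58% higher. Besides Kat2b they included Hdac2, a histone deacetylase (-1.03), with 844 reads in wild-type, 896 in floxed, 453 in DKO and 454 in dCD cells. Ep300, the acetyltransferase p300, stood at -0.02 (738 and 749; above 0 after centring), and Kdm6a, which encodes the UTX subunit of the MLL3/4 complexes, at -0.54 (137 and 91.4). Kdm6a lies on X, and its value was near that chromosome's median of -0.46.

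Of 13 Polycomb loci 5 were lower and 0 higher, beside 16.3% and 7.58% of all loci. Their median was -0.49, and -0.22 after CpG centring. Centred on the median of all regions, 3 were lower, where 9.27% of all loci were. Aebp2, a cofactor of Polycomb repressive complex 2, had 2473 reads in wild-type, 2512 in floxed, 1209 in DKO and 1720 in dCD cells over 22 regions (-1.02), with 10 regions at least 2-fold lower. Mtf2, which recruits that complex to CpG islands, stood at -0.96 (1769 and 948), with 10 of 15 regions at least 2-fold lower, and Jarid2, another cofactor, at -0.82 (3059 and 1944). The core subunit genes Eed and Suz12 stood at -0.63 (557 and 365) and -0.60 (445 and 307), and Ezh2, the methyltransferase, at -0.27 (872 and 711). In formative cells the list median was 0.06.

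Of 10 DNA methylation loci 2 were lower, near the 16.3% of all loci. Dnmt3l, the cofactor of the de novo methyltransferases, had 807 reads in wild-type, 895 in floxed, 419 in DKO and 554 in dCD cells (-0.92), and Tet2, which oxidizes methylcytosine, 2055, 2361, 1291 and 1707 (-0.77). At Tet2 the formative difference was -0.01.

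Genes of other lineages lay nearer to 0. Their counts stand beside 16.3% lower and 7.58% higher of all loci, whose median was -0.11. Of 20 neural loci 0 were lower and 2 higher (median 0.17). Of 19 primitive streak and mesoderm loci 1 was lower and 1 higher (0.04), and of 20 endoderm loci 2 were lower and 1 higher (-0.16), with Sparc, a matrix glycoprotein of parietal endoderm, at -0.73 (2189 and 1120). Of 16 trophoblast loci 5 were lower and 0 higher (-0.22). Tead4, which acts early in the trophectoderm, stood at -0.89 (2698 and 1634), and Ascl2 at -1.20 (801 and 456), with 6 of 7 regions at least 2-fold lower. Of 16 germ line loci 4 were lower and 2 higher (-0.10). Tfap2c, also counted as trophoblast, stood at -1.04 (2507 and 1276), and the higher members were Tdrd1 (0.96; 60.6 and 108), a Tudor domain protein of the piRNA pathway, and Taf7l (0.67; 21.9 and 35.3).

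The loci of 2-cell-like cells, a rare state in these cultures, had a median of -0.62, with 7 of 13 lower and 0 higher. Among all loci 16.3% were lower and 7.58% higher. Centred on the median of all regions, 6 of the 13 were lower and 1 higher, where 9.27% and 14.4% of all loci were. Zscan4f, of a gene family that marks that state, had 36.8 reads in wild-type, 53.7 in floxed, 8.49 in DKO and 9.91 in dCD cells in a single region (-2.58). Usp17lc had 82.4, 89.3, 19.2 and 17.3 over 2 regions (-2.15). Pramel6 had 331, 230, 78.7 and 88.2 over 5 regions (-1.51), and Pramel7 456, 346, 107 and 127 over 3 (-1.43). The RNA log2 folds of Pramel6 and Pramel7 in the authors' deposited table were -2.48 and -2.19. Zscan4 and Usp17l genes have near-identical copies, whose reads cannot be told apart. The list's CpG density was low (median 0.760 per 100 bases), and after CpG centring its median was -0.05, close to the median of regions of like CpG density.

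Gene clusters separated in the same way. Their counts stand beside 16.3% lower and 7.58% higher of all loci. Of 27 Hox loci 0 were lower and 9 higher, with a median of 0.53 that was 0.27 after CpG centring. Hoxa10 had 151 reads in wild-type, 130 in floxed, 309 in DKO and 198 in dCD cells (1.19), Hoxc9 144, 165, 373 and 227 (1.14), and Hoxa7 412, 401, 837 and 589 (0.96). DKO cells had the most reads at all 3. The Hox median was 0.36 in dCD minus wild type and -0.01 in formative cells. RNA values stood for 19 Hox loci in the authors' deposited table, with a median log2 fold of 1.10. The 57 loci of clustered protocadherins had a median of 0.62 (29 higher, 9 lower) and 54 histone loci of 0.47 (15 higher, 0 lower). The 363 olfactory receptor loci had a median of -0.36 (142 lower, 52 higher), 140 vomeronasal receptor loci of -0.49 (67 lower, 14 higher) and 19 Ugt loci, which encode glucuronosyltransferases, of -0.62 (10 lower, 3 higher). After CpG centring the olfactory and vomeronasal receptor medians were 0.00 and -0.13. Those of Ugt, protocadherin and histone loci were then -0.07, 0.29 and 0.39. Members of these families have near-identical copies, and their single values are uncertain.

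Of 24 imprinted loci 1 was lower and 4 higher, with a median of 0.11, beside 16.3% lower and 7.58% higher of all loci. Zrsr1 stood at -1.02 (996 and 458 reads). Magel2 and its neighbour Ndn stood at 0.79 (116 and 203) and 0.68 (46.7 and 75.4), Mcts2 at 0.65 (1113 and 1255) and Sgce at 0.63 (358 and 528). Of 22 metabolic loci 4 were lower, near the 16.3% of all loci, and 0 higher (median -0.18, against -0.11 for all loci). Pfkp, a phosphofructokinase, stood at -0.71 (1549 and 882), Pdk1, a pyruvate dehydrogenase kinase, at -0.60 (1054 and 655), and Cox7a1, a cytochrome oxidase subunit, at -0.70 (427 and 251). For Pfkp, Pdk1 and Cox7a1 the authors' deposited table gives RNA log2 folds of -1.34, -1.24 and -1.57. Of 14 housekeeping loci 2 were lower and 0 higher (-0.18), and of 18 adhesion loci 3 and 0 (-0.27), both near the 16.3% of all loci that were lower.

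The labelled cell type was read from its marker loci. All 4 naive columns had over 1000 reads at Klf2, Klf5, Prdm14 and Tfcp2l1. At Klf4, Tbx3 and Nr0b1, also naive markers, the DKO column had fewer than 1000. The formative floxed and DKO columns also passed 1000 reads at Klf5, Prdm14 and Tfcp2l1, so these sums do not tell naive from formative cells. Formative sums at Klf2 are not given here. For feeder fibroblasts, of 14 loci 1 was lower and 2 higher (0.16), beside 16.3% lower and 7.58% higher of all loci. The members of that list ranged from -0.81 to 1.01. Acta2, smooth muscle actin, had 56.6 reads in wild-type, 46.3 in floxed, 87.4 in DKO and 72.3 in dCD cells (0.89). The authors' deposited table gives Acta2 an RNA log2 fold of 4.08, DKO over wild type. H3K4me1 can mark a gene that is not expressed, so these loci do not count cells of another type.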

How the data were processed

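H3K4me1 was profiled by CUT&RUN in 4 genotypes and 2 states. The authors deposited 1 table for the series with log2 levels per region, a pooled column for each of 8 groups, the log2 fold and FDR (an adjusted p-value) of formative against naive wild-type cells, and log2 folds for H3K27ac and RNA. Per the submitters' processing notes Trim Galore, Bowtie2, SEACR, DiffBind and deepTools were used with mm10, and neither versions nor roles are given in the sources used here. Position columns, per the file headers, hold base pairs. Columns were matched to groups through sample descriptions (CKO denotes the floxed cells), and 14 further value columns, named like these by state and genotype and not by library, were not used.

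Levels equalled log2 of 1 plus a constant times reads over the squared region width. Reads were solved from this and lay within 0.1 log2 of the authors' deposited log2 concentration in 90.7% of regions. At the median width of 1947 bp the added 1 is worth 0.762 reads, so folds of weak regions are understated. Differences were called at 2-fold per region and 1.5-fold per locus (mean over regions within 50 kb, by nearest gene). A limma fit had been planned for a table with 1 column per library, and pooled columns allow none. Intervals need per-library counts and were not computed.

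CpG density, repeat-masked share, motifs and sequences came from the GRCm38 RefSeq assembly. CpG centring subtracted the median of each decile of CpG density. Wild-type transition classes used the authors' deposited FDR, under 0.05 for lost and gained regions, and over 0.2 with an absolute log2 fold under 0.5 for stable ones. The regions named were the 3 lowest and 3 highest per annotation class with at least 64 reads in the higher column. The loci named were the 10 lowest and 10 highest with at least 5 regions, members of 20 gene lists at 1.5-fold or more, Kmt2c and Kmt2d, and some list members nearer to 0, chosen after their values were seen. For loci described at length the lowest and highest regions were taken, and the lowest and highest windows of 1 Mb. The 6 regions whose sequence is printed were picked from these, the motif examples after their matches were seen. The members and lists were chosen with earlier results of these data known. Size calls were also run on simulated reads with planted changes and no added spread between libraries, and the outcome is not given here. Python 3.11.15 was used with numpy 2.4.6, pandas 2.3.3, pysam 0.24.0 and matplotlib 3.10.9.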

Additional observations from a re-analysis of the deposited data

Results flagged for a closer look

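The Fap locus, counted among the fibroblast loci, differed by 1.01 (log2) between naive DKO and floxed cells and by -0.95 between formative DKO and floxed cells, so the states moved in opposite directions. It holds 1 region, an intronic one 42.5 kb from the start site, with 9.38 reads in naive floxed and 19.4 in naive DKO cells. The difference between the states was not tested, since each group is 1 pooled column.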

How the results depend on the processing

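No paired analysis was possible because the 2 libraries of a group are pooled in 1 column, and leaving out each library could not be run for the same reason. As deposited, 29722 regions were lower, 8143 higher, and the lower share of both was 78.5%. With each column centred on its median the lower, higher and share values were 19722, 15060 and 56.7%, and with quantile scaling 19423, 15255 and 56.0%. Further settings were chosen after seeing the data: centring on the difference's own median gave 13810 higher and a lower share of 60.3%, centring within CpG deciles 12116 lower, 14554 higher and a share of 45.4%, and adding 4 reads to each column 4713 higher. With the wild-type control 4741 were higher, and among regions with at least 32 wild-type reads 19344 were lower, 1910 higher and the share was 91.0%. At 1.5-fold the counts were 57775 lower and 26118 higher, and at 3-fold 8326 and 1381. The excess of lower regions thus held under all of these settings except centring within CpG deciles.

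In the order column centring, quantile scaling, own-median centring, the promoter median was 0.59, 0.55 and 0.56, that beyond 100 kb -0.12, -0.10 and -0.15, that of the CpG-poorest decile -0.64, -0.63 and -0.67, and that of the CpG-richest 0.62, 0.58 and 0.59. Regions that wild-type cells lose stood at -0.41, -0.34 and -0.44, regions they gain at 0.11, 0.21 and 0.080, and stable regions at 0.10, 0.11 and 0.073, so the last 2 classes changed side. CpG centring gave 0.11 for promoter regions, -0.027 beyond 100 kb, and -0.37, 0.25 and -0.0065 for regions that wild-type cells lose, gain or keep stable. The wild-type control gave 0.50, -0.44, -0.81, 0.050 and -0.22 for the same 5 classes (promoter, beyond 100 kb, lose, gain, stable). With at least 32 wild-type reads the values were -0.54 beyond 100 kb, -1.19 in the CpG-poorest decile and -0.25 for regions that cells gain.

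The naive pluripotency median (-0.53) was -0.32, -0.25 and -0.35 under the first 3 scalings, -0.36 against each chromosome's median, -0.26 after CpG centring and -0.17 over regions within 10 kb. Over regions within 10 kb 104 of 117 loci kept their sign, and of the loci named above as past 1.5-fold Bmp5 (-0.032), Cxxc1 (0.33) and Tbx3 (0.11) changed side. Of 20 lists, 14 to 20 kept the sign of their median, and of 122 loci followed 119 kept their sign under column centring, with 76 still past 1.5-fold. The cause of these shifts was not tested. At 0.762 reads for the added 1, differences of regions with few reads are the least certain.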
